A study of Homo sapiens with 20 samples.

Results

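The comparison set IMR-32 cells given Dyngo-4a together with prexasertib (the combination, 4 libraries) against IMR-32 cells given Dyngo-4a alone at 1 µM (the low dose, 4 libraries), and so addressed what prexasertib adds to Dyngo-4a. These were 8 of the 20 libraries of the study, and the genes described are the 13729 of 58787 in the table that passed a filter on low counts. IMR-32 is an established human neuroblastoma line with an amplified MYCN gene; the labels give its tissue only as brain, and all groups come from this 1 line. All cultures were adherent and were treated for 24 h. Besides the combination and the low dose, the other groups of 4 libraries were prexasertib alone at 2 nM, DMSO vehicle, and Dyngo-4a at 2.26 µM (the high dose). The doses inside the combination are not in the labels, so a difference between the combination and the 1 µM group and a difference in the Dyngo-4a dose cannot be told apart here. All labels give batch 1. No source used here tells whether replicate libraries were grown as independent cultures, so the p-values describe the spread between these libraries, which may be technical.

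Prexasertib inhibits CHK1, the kinase that holds back new replication origins and mitotic entry while DNA is being copied or repaired. When CHK1 is blocked, cells can enter mitosis with damaged or incompletely copied DNA. Dyngo-4a blocks dynamins, GTPases that cut endocytic vesicles from the cell membrane. DNA damage stabilises the transcription factor p53, whose targets halt the cell cycle, repair DNA or start apoptosis, whereas E2F factors drive the genes of DNA replication and the B-MYB and FOXM1 factors drive the genes of mitosis.

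Totals of the 8 libraries ranged from 4386254 to 6366574 counts. The assay reads the 3′ ends of mRNA. Levels are CPM values, counts relative to the total of the library multiplied by its TMM factor. These factors ranged from 0.968 (combination replicate 2) to 1.026 (low-dose replicate 1) in the 8 libraries, so the CPM totals of the libraries differ slightly. In the principal components of the most variable genes over all 20 libraries, the second component set the 4 combination libraries (-26.8 to -15.5) apart from the other 16 (all at or above -2.69). The third held replicates 1 and 3 above replicates 2 and 4 in each of the 5 groups. Defining adrenergic neuroblastoma genes were present in both groups, GATA3 at 1160.0 ± 71.99 CPM in the combination and 1149 ± 75.9 CPM at the low dose (SD, n = 4 each). Of the 18 markers of fibroblast, immune, endothelial and glial cells 2 had enough counts to be tested. The summed level of all 18 was 25.7 to 49.3 CPM in the combination and 38.5 to 50.3 CPM at the low dose, most of it COL1A1, and CD3E and SOX10 had no count in any of the 8 libraries. The nuclear RNA MALAT1 took 2.33 ± 0.54% of counts in the combination and 1.56 ± 0.43% at the low dose (SD, n = 4 each). Its groups overlapped and the difference did not pass the test (log2 fold change 0.61 ± 0.23, adjusted p = 0.184). It passed with the replicate number as a block (adjusted p = 0.0112). Its part in the results below was not tested.

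Prexasertib on top of Dyngo-4a was accompanied by more rises than falls. With a Benjamini-Hochberg adjusted p under 0.05 as the call, 528 genes (3.85% of those tested) differed, of which 371 (2.7%) were higher and 157 (1.14%) lower in the combination. The median log2 fold change was 0.74 among the genes called higher and -0.46 among those called lower. By at least 2-fold, 128 genes (0.932%) rose and 8 (0.0583%) fell. All 4 combination libraries lay above all 4 low-dose libraries for 671 genes (4.89%) and below them for 577 (4.2%). In the plot of all genes the large rises include p53 targets, heat shock and immediate early genes and histone genes, and the falls are shallow. Same-numbered libraries of both groups deviated together, though not they alone. A fit with the number as a block called 1149 genes, 609 higher and 540 lower. Scaling by library size alone called 329 higher and 256 lower, so the share of rises depends on the scaling. Replicates 1 and 3 alone gave 485 calls (336 higher, 149 lower) and replicates 2 and 4 alone 143 (128 higher, 15 lower). All 157 genes called lower, and all 367 of the 371 called higher that were fitted in both subsets, had the same sign in both. The calls were made on these same libraries, so this agreement is largely set by the selection and is no independent replication. The falls numbered 97 when combination replicate 3 was left out. They numbered 95, 104 and 100 when low-dose replicates 1, 2 or 3 were left out in turn.

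**Figure D1:**
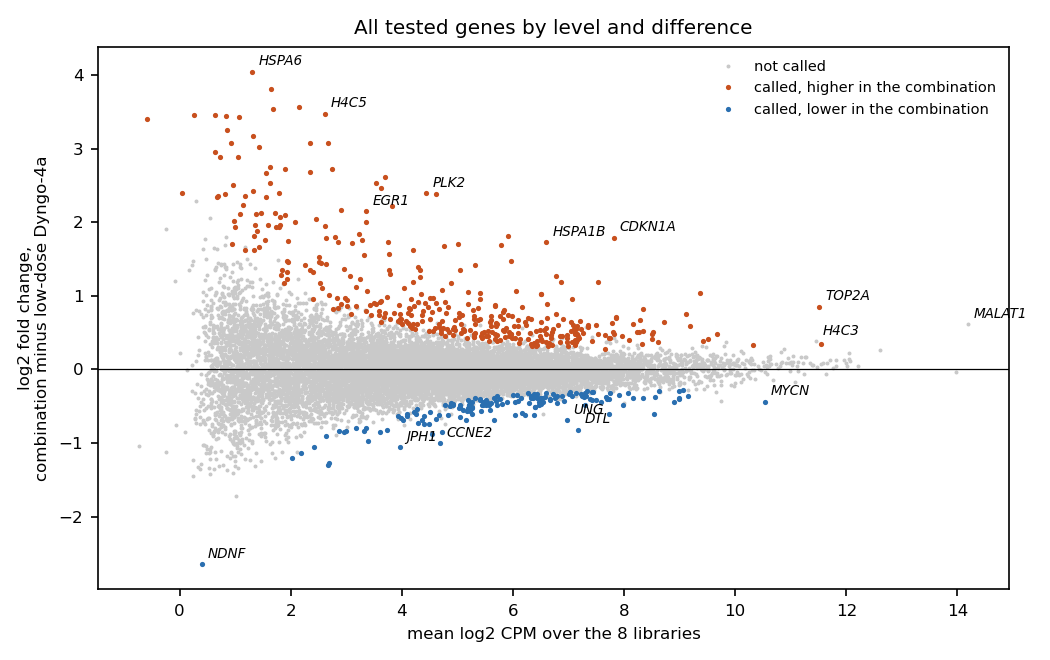
Log2 fold change of the combination over low-dose Dyngo-4a (vertical axis) against the mean log2 CPM over the 8 libraries (horizontal axis) for 13729 tested genes; orange points are the 371 called higher and blue points the 157 called lower. Rises reach 4.05 for HSPA6, and NDNF has the lowest value among called genes, -2.65; both are genes of low counts.

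Genes that p53 is known to switch on for cell cycle arrest and DNA repair were higher in the combination almost throughout: 17 of 18 tested members were called higher and none lower, with a median log2 fold change of 1.13 beside -0.0036 over all genes tested. CDKN1A (chr6:36676460-36687339, GRCh38), the CDK inhibitor p21, had 444, 449.7, 385 and 421 CPM in replicates 1 to 4 of the combination, against 169.8, 129, 80.2 and 113 CPM in replicates 1 to 4 at the low dose. The lowest combination library lay above the highest low-dose library by more than the spread inside either group (log2 fold change 1.79 ± 0.18, adjusted p = 2.06e-06). Errors of log2 fold changes are standard errors throughout. In replicates 1 and 3 alone the rise of CDKN1A did not pass the test (log2 fold change 1.74, adjusted p = 0.106). PLK2 (chr5:58453982-58460260), a stress-induced kinase of centrioles, had 53.7, 41.7, 52.4 and 49.5 CPM in the combination, against 10.4, 8.99, 6.75 and 11.1 CPM at the low dose, and was the largest rise of the list (2.40 ± 0.18, adjusted p = 5.12e-12). PLK3, a related stress kinase, had 27.5, 26.7, 18.6 and 23.9 CPM in the combination, against 8.63, 8.68, 7.84 and 3.998 CPM at the low dose (1.73 ± 0.21, adjusted p = 2.19e-07).

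The growth arrest gene GADD45A was tight in both groups, at 267, 276, 294 and 273 CPM in the combination, against 108, 128, 122 and 128 CPM at the low dose (1.19 ± 0.11, adjusted p = 2.78e-10). PPM1D, the phosphatase that switches off p53 and CHK1 signalling, had 102, 96.997, 85.3 and 98.6 CPM in the combination, against 46.8, 48.4, 40.1 and 47.1 CPM at the low dose (1.07 ± 0.12, adjusted p = 8.64e-08). Of the sensors and enzymes of DNA repair, DDB2, which recognises ultraviolet lesions, had 63.03, 51.2, 47.9 and 46.2 CPM in the combination, against 27.8, 24.8, 26.1 and 21.6 CPM at the low dose (1.05 ± 0.14, adjusted p = 9.73e-07). All 3 genes had separate groups. XPC, the partner of DDB2 in nucleotide excision repair, and POLH, a polymerase that copies past lesions, rose by 0.70 and 1.39. Ferredoxin reductase FDXR rose by 1.68, the stress sestrin SESN2 by 1.42 and the antiproliferative BTG2 by 1.26. The p53-induced ribonucleotide reductase subunit RRM2B had 36.2, 34.3, 30.2 and 33.5 CPM in the combination, against 16.2, 20.8, 16.8 and 21.4 CPM at the low dose (0.83 ± 0.17, adjusted p = 0.00176), opposite in direction to the S phase subunits described below. The 1 tested member without a call, the cyclin CCNG1, had a log2 fold change of 0.49.

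**Figure D2:**
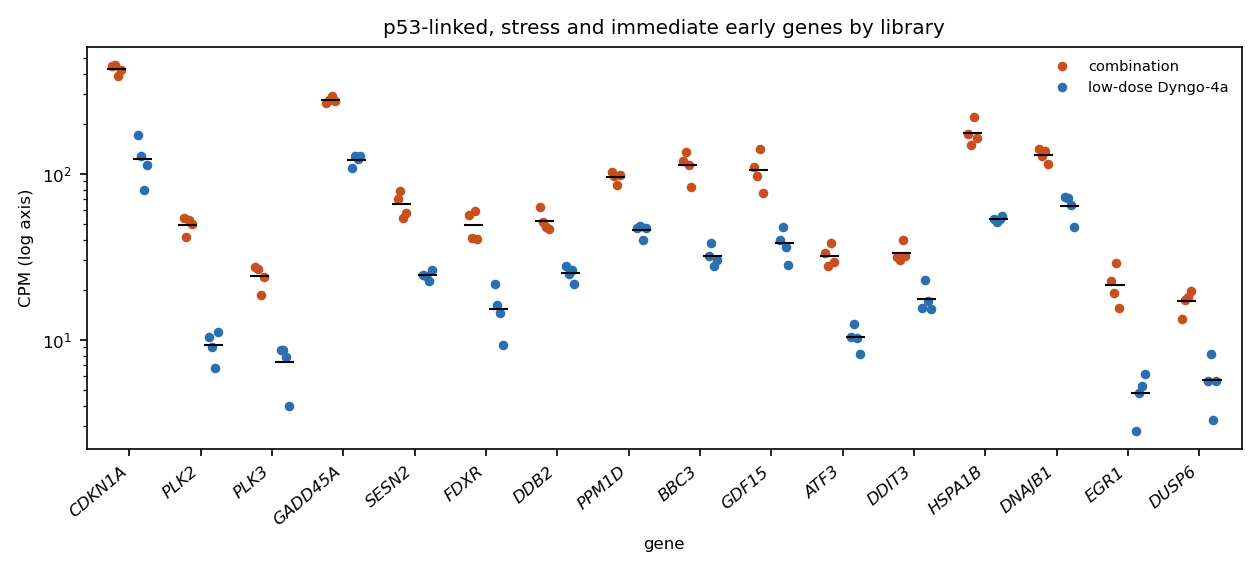
CPM on a log axis in each library of the combination (orange, left of each pair) and of low-dose Dyngo-4a (blue, right) for 16 p53-linked, stress and immediate early genes; horizontal bars are means of 4 libraries. In each of the 16 genes every combination library lies above every low-dose library.

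Among p53 targets of cell death, receptors and other functions, 13 of 17 tested members were called higher and none lower, with a median of 0.64. BBC3, the apoptosis inducer PUMA, had 119, 136, 113 and 83.6 CPM in the combination, against 31.9, 38.3, 27.7 and 29.99 CPM at the low dose (1.81 ± 0.15, adjusted p = 8.24e-10). PMAIP1, the related NOXA, had 119, 115, 128 and 137 CPM in the combination, against 67.5, 86.8, 65.8 and 86.1 CPM at the low dose (0.70 ± 0.13, adjusted p = 0.000407). These were the 2 called members of 13 tested in the BCL2 family, whose median was 0.12. Its effector BAX had a log2 fold change of 0.38, and its guardians BCL2, BCL2L1 and MCL1 had -0.19, 0.36 and 0.05, none past the test. The death receptor FAS was low in every library, at 7.55, 4.31, 5.22 and 7.62 CPM in the combination, against 1.08, 1.58, 1.96 and 1.64 CPM at the low dose (1.96 ± 0.39, adjusted p = 0.000966). In replicates 2 and 4 alone FAS did not pass the test (adjusted p = 0.173). The secreted cytokine GDF15 had 109, 96.5, 141 and 76.9 CPM in the combination, against 39.9, 47.8, 36.2 and 28.2 CPM at the low dose (1.47 ± 0.15, adjusted p = 2.78e-08). Rises were also called for PHLDA3 (1.35), EDA2R (0.97) and AEN (0.49), log2 fold changes in brackets. The p53-induced noncoding RNA PURPL, also called higher, was at 20.05 ± 6.16 CPM in the combination and 4.95 ± 0.549 CPM at the low dose (SD, n = 4 each). A p53 response element of 20 bases with at most 2 mismatches and no spacer, a palindrome read on both strands, was found in 1 of 25 promoters of the called genes of both p53 lists (4%), that of AEN, beside 0.19% of 10002 promoters of tested genes and 0.285% of 35116 in the RefSeq table; it was searched after the values were seen.

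Stress genes of the ATF4 and CHOP branch, which answers amino acid shortage and protein stress, were in part higher: 9 of 17 tested members were called higher and none lower, with a median of 0.74. ATF3 had 33.1, 27.6, 38.4 and 29.4 CPM in the combination, against 10.4, 12.5, 10.2 and 8.18 CPM at the low dose (1.63 ± 0.18, adjusted p = 4.57e-08). DDIT3, which encodes CHOP, had 31.5, 30.1, 39.9 and 31.7 CPM in the combination, against 15.5, 22.7, 16.99 and 15.3 CPM at the low dose (0.90 ± 0.15, adjusted p = 0.000113). Further rises were those of DDIT4, a brake on mTORC1 (0.74), PPP1R15A, which reverses the translation block (0.81), and SLC7A11, the cystine transporter (0.86). CHAC1, the glutathione-degrading ATF4 target, stayed below 10 CPM in all 8 libraries (0.96 ± 0.28, adjusted p = 0.0482) and lost its call without combination replicate 1, 2, 3 or 4 or low-dose replicate 1 or 3 (adjusted p = 0.0622 to 0.188). It was also not called with the compared groups alone (adjusted p = 0.0861), library sizes alone (0.0504) or limma-voom (0.1225). SESN2, ATF3 and GDF15 are also p53-linked genes. Of 13 tested amino acid transporters SLC7A11 alone was called. Of 20 aminoacyl-tRNA synthetases edgeR called 0, with 3 at an unadjusted p under 0.05, 0 called by DESeq2 or limma-voom, and 1 higher and 1 lower with the replicate block. ASNS, PSAT1 and TRIB3 had log2 fold changes of 0.34, 0.0089 and 0.56 without a call. The core of an ATF4 site, TGATGNAAN on either strand, was found in 2 of 9 promoters of the called genes (22.2%), those of ATF3 and CHAC1, beside 1.49% of 10002 promoters of tested genes and 3.61% of 35116 in the RefSeq table. The CHAC1 match is in capitals in the 60 bases at chr15:40953251-40953310 (plus strand).
CHAC1: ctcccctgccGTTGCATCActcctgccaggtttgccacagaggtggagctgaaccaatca

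A few heat shock genes rose. HSPA1B (chr6:31827735-31830255), an inducible HSP70 that shares most of its sequence with HSPA1A, had 174, 149, 219 and 164 CPM in the combination, against 53.3, 50.97, 52.9 and 55.3 CPM at the low dose (1.73 ± 0.13, adjusted p = 2.26e-11). Reads of both copies may be mixed. Its co-chaperone DNAJB1 had 141, 127, 136 and 115 CPM in the combination, against 72.1, 70.8, 64.5 and 47.4 CPM at the low dose (1.03 ± 0.12, adjusted p = 2.62e-07). HSPA4L and BAG3 also rose, by 0.64 and 0.61. The call of BAG3 was lost without combination replicate 3 or 4 or low-dose replicate 3 or 4 (adjusted p = 0.0503 to 0.1), and with no low-count filter (0.0533). These were the 4 calls among 17 tested heat shock genes (5 with the replicate block), whose median was 0.02. HSP90AA1, HSPH1, HSPA8 and HSPD1 had values of 0.27, 0.02, -0.03 and -0.05. HSPA6, the strictly inducible HSP70, was not on the list and had 11.3, 9.13, 7.94 and 4.17 CPM in the combination, against 0.00, 0.789, 0.436 and 0.545 CPM at the low dose, where 1 library had no count (4.05 ± 0.57, adjusted p = 5.61e-06). The HSPA1B promoter holds the heat shock pentamer pair GAANNTTC, in capitals in the 60 bases at chr6:31827608-31827667 (plus strand). It was found in 1 of the 4 promoters of called genes, beside 4.36% of 10002 promoters of tested genes.
HSPA1B: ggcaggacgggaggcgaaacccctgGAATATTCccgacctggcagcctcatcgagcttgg

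Immediate early genes, transcription factors switched on within minutes of growth factor or stress signals, were called higher in 6 of 16 tested members and lower in none, with a median of 0.42. EGR1 had 22.4, 19.1, 28.8 and 15.4 CPM in the combination, against 2.81, 4.73, 5.23 and 6.18 CPM at the low dose (2.15 ± 0.23, adjusted p = 3e-08). JUN had 128, 126, 136 and 126 CPM in the combination, against 61.7, 61.4, 54.2 and 76.9 CPM at the low dose (1.02 ± 0.15, adjusted p = 5.34e-05). FOS was under 10 CPM in all 8 libraries, at 3.77, 4.996, 9.99 and 7.07 CPM in the combination, against 1.51, 0.316, 0.871 and 0.545 CPM at the low dose (3.02 ± 0.47, adjusted p = 3.02e-05). The groups of all 3 genes were separate. Of genes that report and restrain ERK signalling, 3 of 10 tested MAPK feedback genes were called higher (5 with the replicate block), with a median of 0.43. ETV5, an ETS factor, had 11.8, 19.5, 22.02 and 16.7 CPM in the combination, against 4.96, 5.68, 2.83 and 5.82 CPM at the low dose (1.83 ± 0.29, adjusted p = 9.18e-05). It averaged 9.49 ± 2.03 CPM with prexasertib alone and 9.58 ± 3.91 CPM with DMSO (SD, n = 4 each). Both means lay above the low dose, and DMSO replicate 2, at 15.3 CPM, lay within the range of the combination. DUSP6, the ERK phosphatase, had 13.3, 17.2, 18.2 and 19.6 CPM in the combination, against 5.61, 8.21, 3.27 and 5.63 CPM at the low dose (1.56 ± 0.26, adjusted p = 7.28e-05). The other was DUSP4 (0.98 ± 0.26, adjusted p = 0.0221), whose call was lost without combination replicate 1 or low-dose replicate 4 (adjusted p = 0.0832 to 0.105).

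Many genes of mitosis were higher in the combination. Of 23 tested kinesins and spindle genes 17 were called higher, of 20 centromere and spindle assembly genes 10, of 19 mitotic cyclin and APC/C genes 8 and of 13 mitotic kinases 5. None was called lower by edgeR, although with the replicate block 3 centromere genes were. The medians were 0.46, 0.33, 0.26 and 0.25 in that order. TOP2A (chr17:40388516-40417950), the topoisomerase that untangles chromosomes before they part, had 4250.0, 3995, 3844 and 3602 CPM in the combination, against 2020.0, 2279.6, 2265 and 2127 CPM at the low dose (0.85 ± 0.08, adjusted p = 2.45e-09). CENPE, the kinesin that moves chromosomes to the spindle equator, had 824, 664, 772 and 628 CPM in the combination, against 394, 452, 475 and 399.9 CPM at the low dose (0.75 ± 0.10, adjusted p = 1.76e-06). No library of either group crossed into the other for these genes. CDC20, the activator of the anaphase-promoting complex, had 69.7, 78.05, 72.6 and 83.04 CPM in the combination, against 37.8, 44.3, 45.7 and 45.4 CPM at the low dose (0.81 ± 0.12, adjusted p = 9.02e-06). Its ubiquitin-conjugating partner UBE2C had 387, 412, 409 and 519 CPM in the combination, against 191, 269.8, 225 and 293 CPM at the low dose (0.82 ± 0.13, adjusted p = 0.000191).

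Of the kinases that start mitosis, PLK1 had 146, 156, 160.2 and 167 CPM in the combination, against 99.1, 113, 117 and 109.6 CPM at the low dose (0.52 ± 0.09, adjusted p = 0.000131). AURKA rose by 0.55 and CDK1 by 0.43, while AURKB and PLK4 had values of 0.20 and 0.14 without a call. CCNB2, a partner of CDK1, rose by 0.55. The main B cyclin CCNB1 (0.46 ± 0.11, adjusted p = 0.0105) lost its call without combination replicate 4 or low-dose replicate 1 (adjusted p = 0.065 to 0.0749). Other members with called rises were KIF2C (0.65), HMMR (0.69), SGO2 (0.60), CDCA8 (0.66) and BUB1 (0.61). CCNA2, which acts in S phase and G2, had a log2 fold change of 0.13, and the drivers FOXM1 and MYBL2 had 0.30 and -0.41, none of them called. The list of FOXM1, B-MYB and DREAM genes holds more than these factors, and 2 of its 8 tested members rose. They were TOP2A and MKI67 (0.39 ± 0.11, adjusted p = 0.0383), not the factors themselves. The count was 1 without combination replicate 1 or 3 or low-dose replicate 1, 2 or 4. Mitotic genes peak in G2 and M phase, and in bulk RNA a larger share of cells in those phases and more RNA per cell cannot be told apart.

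Promoters of mitotic genes are known to carry a CHR element, TTTGAA, through which the DREAM and B-MYB complexes act. CCAAT boxes are known to lie in the same stretch. The following 100 bases before the RefSeq start of 4 called genes show both, with CHR matches and CCAAT matches of either strand in capitals. They were picked because they show both motifs, and lie at chr16:23678789-23678888 (plus strand) for PLK1, chr15:59105046-59105145 (plus strand) for CCNB2, chr5:163460532-163460631 (plus strand) for HMMR and chr15:90994536-90994635 (minus strand) for PRC1.
PLK1: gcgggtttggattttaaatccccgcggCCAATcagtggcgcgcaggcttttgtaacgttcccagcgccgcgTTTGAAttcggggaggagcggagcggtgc
CCNB2: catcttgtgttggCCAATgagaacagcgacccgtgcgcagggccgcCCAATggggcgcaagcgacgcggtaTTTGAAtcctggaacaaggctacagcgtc
HMMR: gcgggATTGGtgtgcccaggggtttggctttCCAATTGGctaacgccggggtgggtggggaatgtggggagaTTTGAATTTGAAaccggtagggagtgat
PRC1: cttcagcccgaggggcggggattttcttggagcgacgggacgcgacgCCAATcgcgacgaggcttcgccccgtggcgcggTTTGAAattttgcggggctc
In the 300 bases from 250 before to 50 after the start, TTTGAA on either strand was found in 22 of 34 promoters of called mitotic genes (64.7%), beside 9.41% of 10002 promoters of tested genes and 15.2% of 35116 promoters in the RefSeq table (GRCh38.p14). CCAAT on either strand was found in 28 of the 34 (82.4%), beside 37.4% and 34.6%. These are matches of letters, not measured binding, and both motifs were chosen after the values were seen.

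Some genes of DNA replication were lower in the combination. Of 19 tested licensing genes, which load the MCM helicase on origins, 8 were called lower and none higher, with a median of -0.29. MCM4 had 164, 176, 155 and 194 CPM in the combination, against 274, 269, 254 and 249.9 CPM at the low dose (-0.60 ± 0.09, adjusted p = 3.2e-05). MCM10, which activates the helicase, had 132, 129.6, 135 and 136 CPM in the combination, against 198, 177, 185 and 184 CPM at the low dose (-0.48 ± 0.09, adjusted p = 0.000196). MCM2 had 169.6, 178, 174 and 215 CPM in the combination, against 251, 267, 217 and 240.1 CPM at the low dose (-0.40 ± 0.09, adjusted p = 0.00552). For each of the 3 genes every combination library lay below every low-dose library. MCM5 and MCM6 fell by 0.44 and 0.45 on the log2 scale. MCM3, CDC6 and CDC45 fell by 0.40, 0.45 and 0.44, with the groups of CDC45 overlapping. Without combination replicate 3 the list had 5 calls. MCM3 lost its call without combination replicate 1, 2 or 3 or low-dose replicate 4 (adjusted p = 0.0564 to 0.105), CDC6 without combination replicate 3 (adjusted p = 0.0539) and CDC45 without combination replicate 1, 2 or 3 or low-dose replicate 1, 2 or 3 (adjusted p = 0.0611 to 0.155). CDC45 was also not called with the compared groups alone (adjusted p = 0.063). The helicase subunit MCM7 (-0.20), the licensing factor CDT1 (-0.32) and the 6 origin recognition genes tested (-0.29 to 0.02) did not pass the test.

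**Figure D3:**
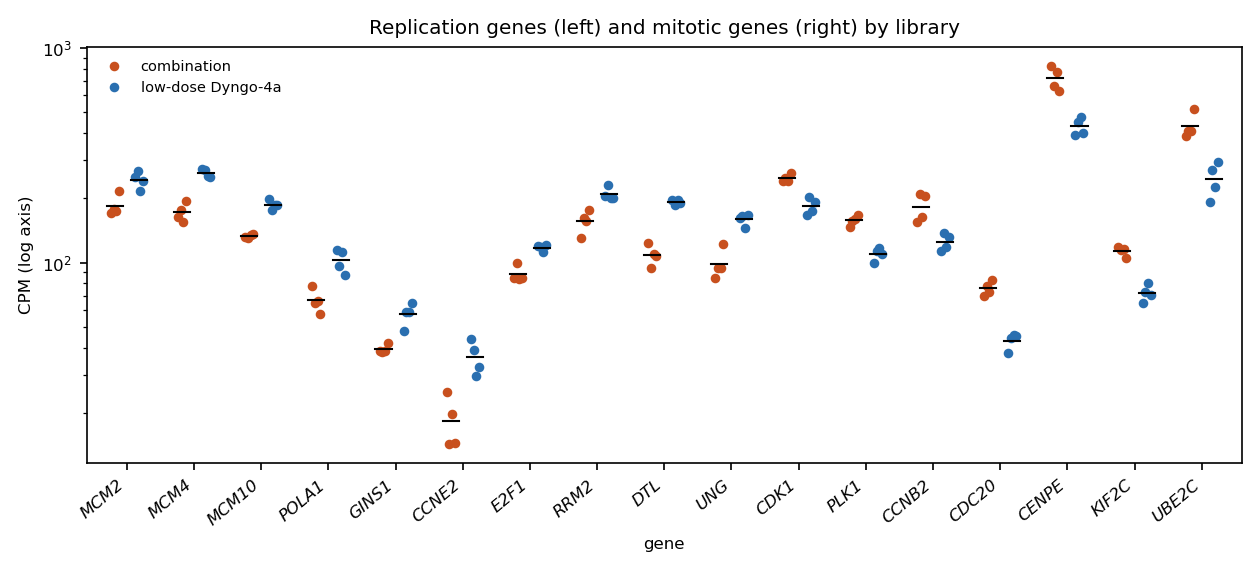
CPM on a log axis in each library of the combination (orange, left of each pair) and of low-dose Dyngo-4a (blue, right); bars are means of 4 libraries. The 10 genes on the left, from MCM2 to UNG, belong to DNA replication, its supply or its repair and have lower means in the combination; the 7 on the right, from CDK1 to UBE2C, belong to mitosis and have higher means.

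Among fork polymerases, the sliding clamp and GINS genes 4 of 27 tested members were called lower (7 with the replicate block or with library sizes alone) and none higher, with a median of -0.20, and 26 of the 27 had a value below 0. POLA1, the catalytic subunit of the primase polymerase, had 77.9, 65.1, 66.5 and 57.5 CPM in the combination, against 115, 96.7, 112 and 87.8 CPM at the low dose (-0.62 ± 0.13, adjusted p = 0.00288). The fork helicase subunit GINS1 had 38.8, 38.2, 38.6 and 42.2 CPM in the combination, against 48.1, 58.7, 59.04 and 64.9 CPM at the low dose (-0.55 ± 0.11, adjusted p = 0.00183). POLD3 fell by 0.60 on the log2 scale and the flap nuclease FEN1 by 0.38. FEN1 had overlapping groups, and its call was lost without combination replicate 1, 3 or 4 or low-dose replicate 1 or 2 (adjusted p = 0.0664 to 0.131). PCNA, the clamp itself and also a p53 target, had a value of -0.17 without a call.

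The E2F core TTTGGCGC or TTTCGCGC, a site of the factors that drive replication genes at the start of S phase, was found in 6 of 13 promoters of called licensing, fork and Fanconi genes (46.2%), beside 2.2% of 10002 promoters of tested genes and 1.15% of all 35116. MCM6 and POLA1 show it well upstream of the start, in the windows chr2:135876514-135876603 (minus strand) for MCM6 and chrX:24693758-24693817 (plus strand) for POLA1, with matches of either strand in capitals.
MCM6: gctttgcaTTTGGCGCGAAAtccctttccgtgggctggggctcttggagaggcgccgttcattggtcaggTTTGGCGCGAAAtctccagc
POLA1: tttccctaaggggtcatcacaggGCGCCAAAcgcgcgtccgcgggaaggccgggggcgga
In the MCM6 window each capital block holds overlapping matches on both strands. The 6 promoters are those of MCM2, MCM3, MCM6, CDC6, GINS1 and POLA1.

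The S phase regulators were called in small numbers: 4 of 20 E2F, cyclin E and RB genes fell (8 with the replicate block, 2 without combination replicate 3) and none rose, with a median of -0.15. CCNE2, a cyclin that drives entry into S phase, had 24.9, 14.3, 19.7 and 14.5 CPM in the combination, against 44.2, 38.97, 29.6 and 32.7 CPM at the low dose (-1.002 ± 0.17, adjusted p = 0.000142). E2F1 had 85.005, 99.8, 83.8 and 84.3 CPM in the combination, against 119, 118, 112 and 120.5 CPM at the low dose (-0.41 ± 0.09, adjusted p = 0.00401). E2F2 and E2F3 fell by 0.66 and 0.30 on the log2 scale. E2F2 lost its call without combination replicate 3 (adjusted p = 0.0783) and E2F3 without combination replicate 1, 3 or 4 or low-dose replicate 1, 2, 3 or 4 (adjusted p = 0.0529 to 0.169). Of 13 tested genes of deoxynucleotide supply 4 fell and 1, RRM2B, rose. The S phase subunit of ribonucleotide reductase RRM2 had 130.1, 162, 156 and 176 CPM in the combination, against 204, 229, 199.6 and 199 CPM at the low dose (-0.41 ± 0.09, adjusted p = 0.00358). The falls of RRM1 and DUT (-0.29 and -0.36) were nearer the threshold. The list had 1 fall without combination replicate 1 or low-dose replicate 4, and 2 without combination replicate 3 or low-dose replicate 2.

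The falls with the smallest p included genes of replication control and base repair. DTL (chr1:212035553-212107400), the adaptor by which CRL4 marks licensing factors for destruction on chromatin, had 124, 94.8, 109.6 and 107 CPM in the combination, against 195, 186, 196 and 189 CPM at the low dose (-0.82 ± 0.09, adjusted p = 3.2e-08). UNG (chr12:109097574-109110992), the glycosylase that removes uracil from DNA, had 84.3, 94.2, 93.97 and 122 CPM in the combination, against 161, 165, 145 and 166 CPM at the low dose (-0.69 ± 0.10, adjusted p = 6.13e-06). WDR76, a nuclear WD-repeat protein, had 51.05, 62.2, 58.6 and 68.9 CPM in the combination, against 83.3, 100.2, 88.4 and 98.5 CPM at the low dose (-0.62 ± 0.10, adjusted p = 5.23e-05). All 4 combination libraries lay below all 4 low-dose libraries for each, which the choice by smallest p largely sets.

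Of 20 tested genes of the ATR and CHK1 pathway, the checkpoint that prexasertib targets, 2 fell and 1 rose (with the replicate block 2 and 3), with a median of -0.12. CHEK1, the gene of the prexasertib target, had 27.7, 31.9, 39.7 and 32.999 CPM in the combination, against 28.9, 37.1, 40.5 and 43.8 CPM at the low dose, and did not differ beyond the spread between libraries (-0.19 ± 0.15, adjusted p = 0.635). CLSPN, the adaptor claspin that CHK1 needs, had 217, 233, 209 and 198 CPM in the combination, against 315, 298, 314 and 278 CPM at the low dose (-0.49 ± 0.09, adjusted p = 0.000415). Of the phosphatases that CHK1 restrains, CDC25A fell (-0.37 ± 0.09, adjusted p = 0.014), a call lost without combination replicate 1 or 4 or low-dose replicate 2 (adjusted p = 0.0566 to 0.0814). CDC25C, which acts at mitotic entry, had 38.8, 43.1, 43.4 and 31.2 CPM in the combination, against 23.95, 25.7, 27.4 and 21.3 CPM at the low dose (0.67 ± 0.14, adjusted p = 0.00172). WEE1, the kinase that opposes them, was at 49.6 ± 5.35 CPM in the combination and 47.7 ± 2.35 CPM at the low dose (SD, n = 4 each). Its difference did not pass the test (0.05 ± 0.11, adjusted p = 0.885), and its sign changed without combination replicate 1 (log2 fold change -0.015).

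The series title names MUS81, an endonuclease that cuts stalled forks together with EME1. MUS81 had 44.8, 44.97, 47.7 and 51.7 CPM in the combination, against 43.8, 53.02, 51.8 and 50.9 CPM at the low dose (-0.08 ± 0.11, adjusted p = 0.824). EME1 had 41.7, 31.2, 34.7 and 32.999 CPM in the combination, against 36.04, 27.3, 40.1 and 29.8 CPM at the low dose (0.08 ± 0.15, adjusted p = 0.873). Both pairs of groups overlapped, and the value of EME1 was -0.0035 without combination replicate 1. Of 17 tested fork nuclease genes 2 fell, RBBP8, which starts end resection (-0.48 ± 0.10, adjusted p = 0.003), and EXO1, a resection nuclease (-0.34 ± 0.10, adjusted p = 0.0481), whose call was lost without combination replicate 2, 3 or 4 or low-dose replicate 1, 2, 3 or 4 (adjusted p = 0.0641 to 0.189). Among 25 tested Fanconi and homologous recombination genes 4 fell, BRCA1, BARD1, BRIP1 and BLM, by 0.32, 0.46, 0.45 and 0.37 on the log2 scale, and none rose. The median was -0.24, and 24 of the 25 had a value below 0. BRCA1 lost its call without combination replicate 1, 2 or 4 or low-dose replicate 1 or 3 (adjusted p = 0.06 to 0.188), and also with the compared groups alone (adjusted p = 0.0588) or no low-count filter (0.0507). BARD1 lost it without combination replicate 2 or low-dose replicate 1 (adjusted p = 0.0544 to 0.0606), BRIP1 without combination replicate 2 or 4 or low-dose replicate 1 (adjusted p = 0.0816 to 0.0962) and BLM without combination replicate 2 or 4 or low-dose replicate 2 or 3 (adjusted p = 0.0548 to 0.0684). The count of falls was 11 with the replicate block and 2 without low-dose replicate 3. It was 1 without combination replicate 4 or low-dose replicate 1, and 1 without combination replicate 2, where none of these 4 genes was called. The genes of the dynamins that Dyngo-4a blocks had overlapping groups. DNM1 had 14.2, 16.9, 20.7 and 21.03 CPM in the combination, against 26.1, 18.1, 24.8 and 14.4 CPM at the low dose (-0.18 ± 0.19, adjusted p = 0.74). DNM2 had 62.6, 58.6, 58.1 and 45.3 CPM in the combination, against 53.7, 54.6, 53.6 and 53.8 CPM at the low dose (0.06 ± 0.10, adjusted p = 0.874). Both changed sign in replicates 2 and 4 alone. Of 27 tested dynamin and endocytic coat genes 1 was called, the endophilin SH3GL3 (-0.48 ± 0.13, adjusted p = 0.0193), which was not called without combination replicate 2 or 3 or low-dose replicate 2 or 3 (adjusted p = 0.0504 to 0.0825).

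MYCN, the amplified oncogene of this line, had 1151, 1279, 1205 and 1480.4 CPM in the combination, against 1672, 1872, 1579 and 1806 CPM at the low dose (-0.44 ± 0.09, adjusted p = 0.00208), and the groups were separate. Of its network, the MAX partner MXD4 rose by 0.43 and MAX itself had -0.12 without a call. MXI1, an antagonist of MYC factors, fell (-0.39 ± 0.12, adjusted p = 0.0494) with overlapping groups, a call lost without combination replicate 2, 3 or 4 or low-dose replicate 1, 2 or 4 (adjusted p = 0.108 to 0.252). Ribosome biogenesis genes, which MYC factors are known to drive, had values below 0 in 21 of 22 tested members (median -0.22), of which 2, UTP20 and NOP14, were called (7 with the replicate block, 6 with library sizes alone). The count was 0 without combination replicate 2 or low-dose replicate 3, and 1 without combination replicate 1 or 3 or low-dose replicate 1 or 2. The E-box CACGTG, a MYC site also searched after the values were seen, was in both promoters of the 2 called genes, beside 10.4% of 10002 promoters of tested genes and 7.26% of 35116. Cytosolic ribosomal protein genes had values above 0 in 51 of 52 members, with a median of 0.09. Of these edgeR called 0, with 2 at an unadjusted p under 0.05, 0 by DESeq2 or limma-voom and 3 higher with the block. Among 18 tested adrenergic core factors, which set the identity of this tumour type, 4 were called lower, among them ISL1, EYA1 and HAND1, by 0.36, 0.36 and 0.33 on the log2 scale. These 3 calls were close to the threshold (adjusted p = 0.0266, 0.0457 and 0.0278), and 0 to 2 of the 4 were left without any 1 of the 8 libraries. That count was 0 without combination replicate 1 or low-dose replicate 2, 1 without combination replicate 3 or low-dose replicate 1 or 3, and 2 without combination replicate 2 or 4 or low-dose replicate 4. GATA3 had a value of 0.01 without a call. KIT, a receptor kinase, had 11.8, 10.9, 6.36 and 10.5 CPM in the combination, against 16.4, 18.5, 15.03 and 20.2 CPM at the low dose (-0.82 ± 0.18, adjusted p = 0.00246). It was 1 of 3 falls among 18 tested receptor kinase and IGF genes (6 with the replicate block, 1 without combination replicate 2 or 4). The others were FGFR2 and the IGF-binding protein IGFBP5, by 0.84 and 0.60 on the log2 scale. FGFR2 lost its call without combination replicate 2, 3 or 4 or low-dose replicate 1, 2 or 4 (adjusted p = 0.0537 to 0.0929) and with limma-voom (adjusted p = 0.0539). IGFBP5 lost it without combination replicate 1, 2 or 4 or low-dose replicate 2 or 3 (adjusted p = 0.075 to 0.114) and with library sizes alone (adjusted p = 0.0665).

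**Figure D4:**
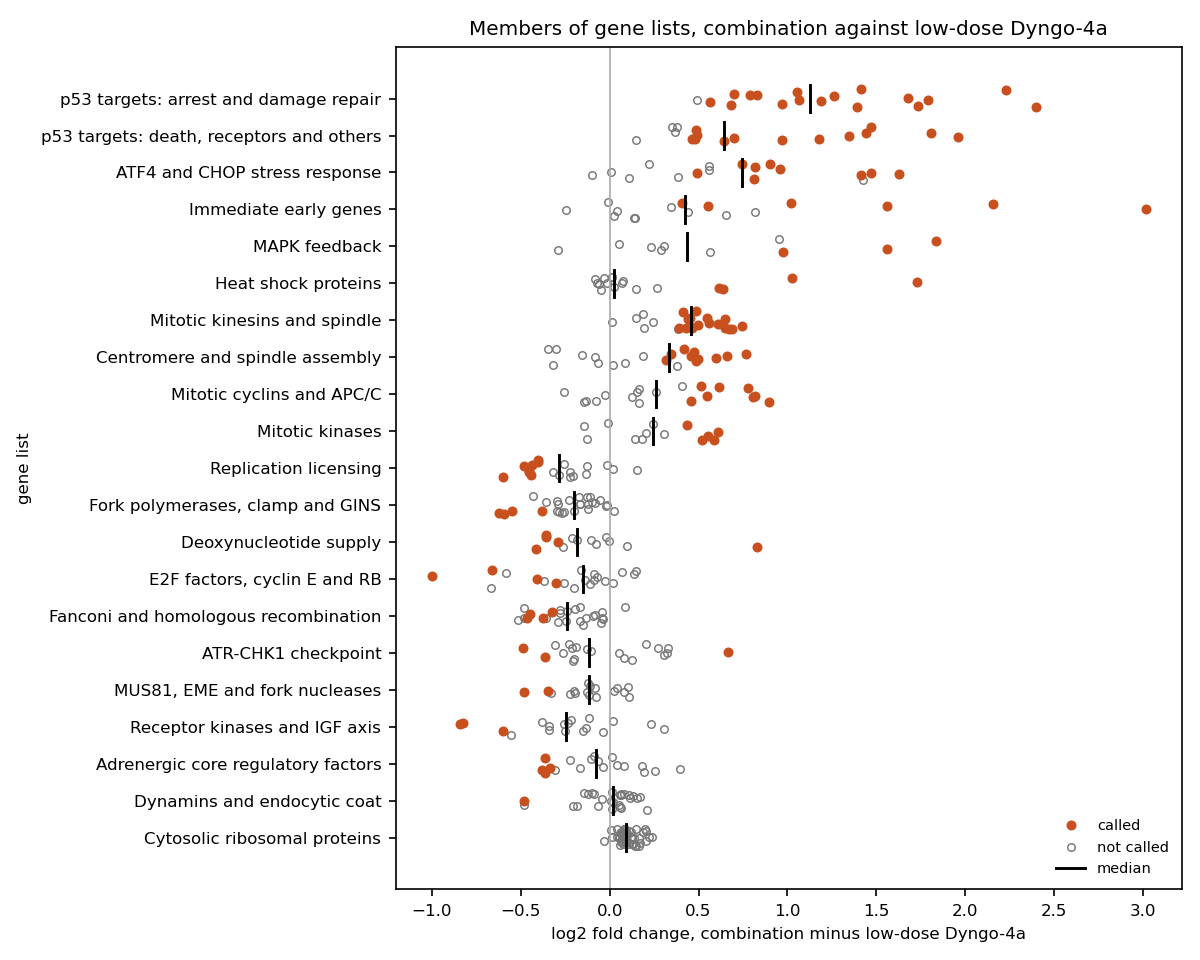
Log2 fold change of the combination over low-dose Dyngo-4a (horizontal axis) for the tested members of 21 gene lists (vertical axis); filled points are called genes, open points genes without a call, and vertical bars list medians. The p53, stress and mitotic lists have medians from 0.25 to 1.13 except the heat shock list at 0.02, and the replication lists from -0.29 to -0.15.

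Several other stress and metabolic programmes showed no or single calls. Of 29 hypoxia and glycolysis genes edgeR called 0, with 6 at an unadjusted p under 0.05, 2 called by DESeq2, 0 by limma-voom, and 3 higher and 2 lower with the replicate block. Of 21 ER chaperone and unfolded protein response genes it called 0, with 3 at an unadjusted p under 0.05, 0 by DESeq2 or limma-voom and 1 with the block. For 9 interferon response and 8 CCT chaperonin genes all these counts were 0 except 1 chaperonin gene at an unadjusted p under 0.05. Of 29 tested cholesterol and fatty acid genes the sterol carrier STARD4 rose (0.72 ± 0.12, adjusted p = 0.000131), and with the block 2 rose and 6 fell. Single rises were those of the thioredoxin inhibitor TXNIP among 9 genes of its group (0.65 ± 0.10, adjusted p = 3.18e-05) and of the microtubule-binding MAP1A among 24 neuronal cytoskeleton and synapse genes (0.63 ± 0.11, adjusted p = 0.000151).

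Replication-dependent histone genes and small nuclear RNA genes stood out among the largest rises and were counted as groups after their values were seen. Most histone messages end in a stem-loop without a poly(A) tail, and spliceosomal small nuclear RNAs have no tail either, so a poly(A)-primed 3′ assay captures few of their molecules. Of 65 such histone genes counted, 43 were tested, 30 were called higher and none lower, and all 43 had a value above 0 (median 1.35). Of the 30 called, 28 had a low-dose mean under 10 CPM. H2BC8 had 26.6, 28.9, 34.95 and 22.7 CPM in the combination, against 5.18, 3.63, 5.23 and 6.54 CPM at the low dose (2.46 ± 0.20, adjusted p = 3.81e-11). H4C5 had 22.9, 21.7, 19.1 and 18.5 CPM in the combination, against 2.37, 2.998, 0.218 and 1.45 CPM at the low dose (3.48 ± 0.32, adjusted p = 5.54e-10). The summed level of the histone genes without H4C3 was 749 to 1153 CPM in the combination libraries, against 411 to 621 CPM at the low dose. It was 535 to 907 CPM with prexasertib alone and 460.1 to 786 CPM with DMSO, and the combination overlapped both. H4C3 itself had 3402, 2315, 3227 and 4215 CPM in the combination, against 1804, 2480.3, 2504 and 3319 CPM at the low dose, with overlapping groups and no call (0.38 ± 0.23, adjusted p = 0.504). Of the 50 tested small nuclear RNA genes, among them many pseudogene copies, 15 were called higher and none lower, with a median of 0.25. The summed level of all 50 was 1207 to 2045 CPM in the combination libraries, against 915 to 1716 CPM at the low dose, and 1219 to 1754 CPM with prexasertib alone and 869 to 1493 CPM with DMSO, so the groups overlapped. The largest part of this sum was RNU4ATAC, at means of 1090 CPM in the combination and 841.5 CPM at the low dose (0.37 ± 0.34, adjusted p = 0.699). The sum therefore tells little about the other members. RNU4-2, a U4 gene, had 18.2, 11.2, 17.2 and 16.7 CPM in the combination, against 4.96, 1.89, 1.74 and 5.45 CPM at the low dose (2.17 ± 0.29, adjusted p = 2.6e-06). Histone and small nuclear RNA genes have near-identical copies between which counting could split reads, so single members are uncertain. The share of MALAT1, another RNA of the nucleus, was higher on average in the same libraries, as given above, and its part was not tested.

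After PLK2, the rises with the smallest p were those of TOB1, STK17A and HEXIM1. TOB1, an antiproliferative protein of mRNA decay, had 98.99, 86.3, 107 and 105 CPM in the combination, against 26.1, 28.6, 30.9 and 37.1 CPM at the low dose (1.69 ± 0.13, adjusted p = 5.12e-12). STK17A, a kinase linked to apoptosis, had 59.9, 50.8, 67.4 and 55.5 CPM in the combination, against 17.05, 19.7, 14.8 and 19.3 CPM at the low dose (1.71 ± 0.13, adjusted p = 1.3e-11). HEXIM1, which holds the elongation factor P-TEFb inactive, had 191, 165, 182 and 143 CPM in the combination, against 78.6, 68.2, 69.1 and 66.9 CPM at the low dose (1.27 ± 0.10, adjusted p = 2.16e-11). For each of them every combination library lay far above the low-dose libraries, which their choice by smallest p largely sets. In the other direction, JPH1, a junction protein of the endoplasmic reticulum, had the largest fall under the naming rule, at 10.7, 9.82, 10.2 and 11.6 CPM in the combination, against 23.95, 21.1, 22.7 and 20.4 CPM at the low dose (-1.05 ± 0.18, adjusted p = 9.94e-05). The potassium channel KCNK2 had 43.1, 33.6, 34.95 and 47.7 CPM in the combination, against 70.4, 60.1, 59.5 and 67.8 CPM at the low dose (-0.69 ± 0.11, adjusted p = 8.54e-05). Other large falls were CLMP (-0.97), TEX15 (-0.88), SERTAD4 (-0.85), PLPP3 (-0.84) and SMAD3 (-0.74), of which SMAD3 transmits TGF-β signals.

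Whether prexasertib made a different change with Dyngo-4a than without it was tested as the difference between 2 differences, the combination minus the low dose and prexasertib alone minus DMSO, which share no library. Neither dose inside the combination is in the labels. A dose of either drug unlike that of its single-drug group cannot be told apart from a different change. The difference was called for 39 genes (0.284% of those tested), 37 with a larger value when Dyngo-4a was present (0.27%) and 2 with a lower one (0.0146%). With the replicate number as a block it was called for 167, 131 with a larger value and 36 with a lower one. Whether the numbers pair the libraries was checked in the combination and the low dose, not in the other groups. Without the block 900 genes had an unadjusted p under 0.05. All 39 genes were also called in the combination against the low dose. HSPA1B averaged 176 ± 29.9 CPM in the combination and 53.1 ± 1.76 CPM at the low dose, and 89.5 ± 18.4 CPM with prexasertib alone and 67.1 ± 9.71 CPM with DMSO (SD, n = 4 each), a log2 difference of 1.31 ± 0.18, adjusted p = 0.000223. STK17A averaged 58.4 ± 7.06 CPM in the combination and 17.7 ± 2.26 CPM at the low dose, and 17.2 ± 2.53 CPM with prexasertib and 13.7 ± 1.30 CPM with DMSO (1.39 ± 0.20, adjusted p = 0.000223). PLK3 averaged 24.2 ± 4.03 CPM in the combination and 7.29 ± 2.23 CPM at the low dose, but 6.29 ± 1.26 CPM with prexasertib and 6.49 ± 1.32 CPM with DMSO (1.79 ± 0.31, adjusted p = 0.00211).

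Of the 18 p53 arrest and repair genes 7 were among the 39, of the 17 p53 death genes 2, and of the 17 ATF4 and CHOP genes 3, against 0 of 19 licensing and 1 of 20 centromere genes. These counts overlap, since SESN2 and GDF15 are each on a p53 list and on the ATF4 and CHOP list. DDB2 averaged 52.1 ± 7.58 CPM in the combination and 25.1 ± 2.63 CPM at the low dose, and 14.8 ± 2.08 CPM with prexasertib and 16.4 ± 1.73 CPM with DMSO (1.21 ± 0.20, adjusted p = 0.00128). CDKN1A was not called here. It averaged 425 ± 29.3 CPM in the combination and 123 ± 37.2 CPM at the low dose, and 91.7 ± 10.8 CPM with prexasertib and 53.99 ± 12.4 CPM with DMSO (1.03 ± 0.26, adjusted p = 0.143). The 2 genes with a lower value were DTL and KCNK2. DTL averaged 109 ± 11.8 CPM in the combination and 192 ± 4.82 CPM at the low dose, and 151 ± 5.02 CPM with prexasertib and 165 ± 3.28 CPM with DMSO (-0.69 ± 0.13, adjusted p = 0.00288). TOP2A was the most abundant of the 39, at 3923 ± 272 CPM in the combination and 2173 ± 123 CPM at the low dose, and 2655 ± 102 CPM with prexasertib and 2191 ± 87.3 CPM with DMSO (0.57 ± 0.12, adjusted p = 0.0109). The call of TOP2A was lost without low-dose replicate 1 (adjusted p = 0.0521) and that of KCNK2 without combination replicate 2 (adjusted p = 0.0557). In replicates 1 and 3 alone 30 genes were called, 18 of them among the 39, and in replicates 2 and 4 alone 1 gene, which was not among them.

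**Figure D5:**
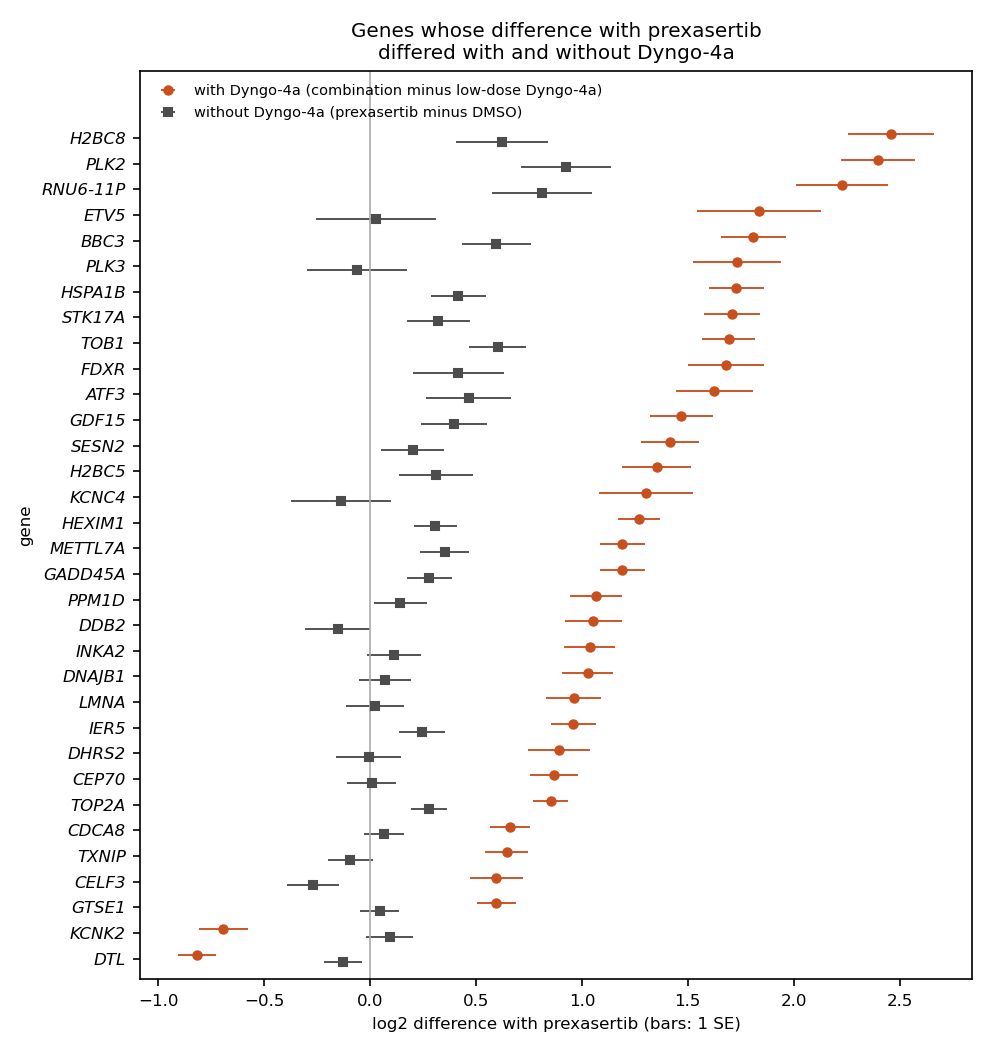
Log2 difference with prexasertib (horizontal axis, bars of 1 standard error) in the presence of Dyngo-4a (orange circles, combination minus low dose) and without it (grey squares, prexasertib minus DMSO) for the 33 genes called in the difference of both that have a symbol and enough counts. DTL and KCNK2 lie below 0 with Dyngo-4a and the other 31 genes above it. The doses of both drugs inside the combination are not in the labels.

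Because the Dyngo-4a dose inside the combination is not in the labels, the high-dose group is set beside the others here as values only. For CDKN1A the mean was 425 CPM in the combination, 171 CPM at the high dose and 123 CPM at the low dose, and for PLK2 it was 49.3, 19.96 and 9.30 CPM in the same order. Both genes were therefore higher in the combination than at either dose, which did not hold for every p53-linked gene. SESN2 had 65.2 CPM in the combination, 76.3 CPM at the high dose and 24.4 CPM at the low dose. BBC3 had 113, 89.9 and 32.0 CPM in the same order, and STK17A had 58.4, 43.7 and 17.7 CPM, with the high dose nearer the combination than the low dose. HSPA1B had 176 CPM in the combination, 22.5 CPM at the high dose and 53.1 CPM at the low dose, while CENPE had 722, 397 and 430.3 CPM, so for these the high dose lay below the low dose. TXNIP had 165 CPM in the combination, 545 CPM at the high dose and 105 CPM at the low dose, and DDIT3 had 33.3, 72.05 and 17.6 CPM, with the high dose above the combination. MYCN had 1279 CPM in the combination, 1246 CPM at the high dose and 1732 CPM at the low dose, and UNG had 98.6, 113 and 159 CPM, so that for these falls both the combination and the high dose lay below the low dose.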

How the data were processed

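IMR-32 cells were profiled with 3′ mRNA libraries (QuantSeq) carrying molecular barcodes. The deposited values are counts per gene, raw and not normalised; that they are whole numbers was checked. Per the submitters' processing notes FastQC 0.11.7, STAR 2.7.2b, edgeR 3.36.0, limma 3.50.3 and GRCh38 were used. The annotation release, the counting and strand settings and the collapsing of barcodes could not be read from the labels (not given in the sources used here). Without strand, reads of overlapping antisense genes cannot be told apart.

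Groups came from the labels. The low-count filter was filterByExpr (count of at least 10, total of at least 15) and the scaling TMM. All 20 libraries entered 1 group-means model in edgeR 4.0.16 (quasi-likelihood test, robust, two-sided, 15 residual degrees of freedom, biological coefficient of variation 12.5%) in R 4.3.3, and p-values were adjusted by Benjamini-Hochberg over the 13729 genes tested. Alternatives were other scalings and filters, DESeq2 1.42.0, limma-voom (limma 3.58.1), a fit of just the compared groups, a block for the replicate number, subsets of replicates and leaving out each library. The steps were tested on simulated data. Replicate libraries of a group had Pearson's r of 0.970 to 0.981 across genes, which are not independent, and a chi-square per degree of freedom of 3.01 to 8.46, so none was a copy of another. Where no read was seen, the limit is 3 counts, or 0.684 CPM in the smallest compared library; this covers counting error only. Deviations from the group means correlated between same-numbered libraries of both groups by 0.144 to 0.294, each over 0.1. That limit does not single out same numbers. Over 5000 genes, combination replicate 1 gave 0.353 with low-dose replicate 3 and 0.338 with low-dose replicate 1. Combination replicate 4 gave 0.18 with low-dose replicate 2, but 0.655 with low-dose replicate 4. The same number gave the highest value for combination replicates 2, 3 and 4. How far the split of replicates 1 and 3 from 2 and 4 adds to these values was not tested. The number was read as a possible pairing, which the main fit leaves out, and blocked values stand beside the counts they change.

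Gene positions are those of GENCODE 29, with 58515 identifiers matched; 802 tested genes had no symbol. The 43 gene lists held 826 genes, of which 748 were tested, and promoters came from RefSeq (10002 matched tested genes). The members and lists were chosen with earlier results of these data known. The naming rule took 12 rises and 12 falls of greatest size among called genes (mean log2 CPM of at least 3, groups separate), the 6 with the smallest p each way, 4 each way of the difference of differences and up to 5 members of each list; the text names some of these, and genes outside the rule were chosen after their values were seen. Some genes are not reported here.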

Additional observations from a re-analysis of the deposited data

Results flagged for a closer look

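In 7 of the genes named here, 1 library stood apart from the other 3 of its group by Dixon's criterion for groups of 4, which chance alone meets in about 1 group in 20. DDIT3 had 39.9 CPM in combination replicate 3, against 30.2 to 31.7 CPM in the other 3 libraries of that group. GINS1 had 42.2 CPM in combination replicate 4, against 38.2 to 38.8 CPM in the others. E2F1 had 99.8 CPM in combination replicate 2, against 83.8 to 85.0 CPM, MXI1 had 78.6 CPM in combination replicate 1, against 66.0 to 67.6 CPM, and CDCA8 had 170 CPM in combination replicate 3, against 189 to 193 CPM. At the low dose, ARC had 2.40 CPM in replicate 3, against 9.47 to 10.8 CPM in the others, and RRM2 had 229 CPM in replicate 2, against 199 to 204 CPM.

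For 27 of the genes named here the log2 difference with prexasertib differed between cells with and without Dyngo-4a by edgeR's test of that difference. Among p53-linked genes the differences were 1.47 for PLK2, 1.79 for PLK3, 0.91 for GADD45A, 1.21 for SESN2, 1.21 for DDB2, 0.923 for PPM1D, 1.26 for FDXR, 1.21 for BBC3 and 1.07 for GDF15. Stress and signalling genes had 1.16 for ATF3, 0.738 for TXNIP, 1.31 for HSPA1B, 0.956 for DNAJB1 and 1.81 for ETV5. Cell cycle genes had 0.575 for TOP2A, 0.592 for CDCA8 and -0.689 for DTL. Histone and small nuclear RNA genes had 1.84 for H2BC8, 2.9 for H4C5, 1.04 for H2BC5, 1.41 for RNU6-11P, 2.97 for RNVU1-31 and 3.37 for RNVU1-28, with copies between which reads may be split. The others were 1.09 for TOB1, 1.39 for STK17A, 0.961 for HEXIM1 and -0.785 for KCNK2. Of the 16 libraries in this test, leaving out 1 ended the call of FDXR without any 1 of 9 (adjusted p = 0.0572 to 0.11), ATF3 without any 1 of 10 (adjusted p = 0.0732 to 0.144), CDCA8 without any 1 of 9 (adjusted p = 0.0548 to 0.123), ETV5 without any 1 of 12 (adjusted p = 0.0506 to 0.129), H2BC5 without any 1 of 12 (adjusted p = 0.0581 to 0.153) and RNU6-11P without any 1 of 9 (adjusted p = 0.0619 to 0.152).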

How the results depend on the processing

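The combination against the low dose gave 528 calls, and 462 to 622 under the other scalings, filters and tools and with the compared groups alone. It gave 1149 with the replicate number as a block, 829 with a term that sets replicates 1 and 3 apart from 2 and 4, and 143 in replicates 2 and 4 alone, where fewer libraries were fitted; all 528 genes were among those called with the block and with the term. Leaving out 1 library gave 386 to 497 calls. The difference between prexasertib's effects with and without Dyngo-4a gave 39 calls, but 65 without a low-count filter, 72 with DESeq2, 167 with the replicate block, 93 with that term, 1 in replicates 2 and 4 alone and 29 to 57 with 1 library left out; the cause was not tested. Of single genes named here, values changed sign for DNM1 (0.21), DNM2 (-0.065) and WEE1 (-0.083) in replicates 2 and 4 alone, and for WEE1 (-0.015) and EME1 (-0.0035) without combination replicate 1; none of these was called. With 1 library left out EME1 ranged from -0.0035 to 0.18 and WEE1 from -0.015 to 0.10. Of the 137 genes followed, 60 of those called lost their call in replicates 2 and 4 alone and 24 in replicates 1 and 3 alone. MALAT1 was called with the block (0.63), the term (0.62) and in replicates 1 and 3 (0.57) or 2 and 4 (0.69) alone. The block changed no other call of these genes. At this depth genes of a few CPM, such as FAS, FOS, HSPA6 and most histone genes, carry wide errors.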

Other observations

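Among called genes on none of the gene lists, and chosen after their values were seen, the p53-induced ribosomal protein paralog RPS27L had 1018, 907, 859.8 and 1003 CPM in the combination, against 450.0, 453, 415 and 533 CPM at the low dose (edgeR log2 fold change 1.03 ± 0.10, adjusted p = 2.24e-09). The methyltransferase-like METTL7A had 198, 186, 165 and 161 CPM in the combination, against 87.8, 75.6, 66.7 and 80.3 CPM at the low dose (1.19 ± 0.11, adjusted p = 2.78e-10). IER5, an immediate early gene linked to heat shock factor activity, had 172, 219, 194 and 166 CPM in the combination, against 108, 101, 77.99 and 99.4 CPM at the low dose (0.96 ± 0.11, adjusted p = 4.67e-08). In all 3 genes every combination library was above every low-dose library.

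Among the largest falls the transcription factor MYB had 7.32, 8.27, 7.26 and 6.89 CPM in the combination, against 15.3, 10.4, 13.9 and 12.5 CPM at the low dose (-0.80 ± 0.20, adjusted p = 0.0135). The orphan receptor GPR26 had 16.9, 20.5, 17.7 and 13.96 CPM in the combination, against 34.3, 28.7, 25.9 and 26.4 CPM at the low dose (-0.74 ± 0.18, adjusted p = 0.0141). Separate groups were a condition of the naming rule by which both genes were picked.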
